A study of Mus musculus with 24 samples.

Results

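DNA methylation was examined at 9 genes linked to Alzheimer disease (App, Psen2, Sorl1, Bin1, Apoe, Abca7, Trem2, Mapt and Ank1) in the dentate gyrus of young and aged mice. The genes were taken by name, and every CpG cytosine of the table that lay inside one of them or within 2000 bases of it in the GENCODE M21 annotation of mm10 was used. This gave 544 of 762162 CpG cytosines, of which 273 lay within 1000 bases of an annotated transcript start of the gene (promoter), 266 elsewhere in the gene (body) and 5 outside it (flank). App and Ank1 held 144 cytosines each, Mapt 58, Sorl1 54, Abca7 50, Bin1 41, Apoe 32, Psen2 14 and Trem2 7. Apoe had no measured cytosine in its body, Abca7 had 1 and Trem2 had none at a promoter, so that 16 regions could be tested, namely the promoters of 8 genes, the bodies of 7 and the Sorl1 flank.

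The methylation had been measured by reduced representation bisulfite sequencing (RRBS), which reads CpG-rich fragments released by a restriction enzyme and gives, for each cytosine, the percentage of reads in which it was methylated. The mice were female C57BL/6JRj animals of no altered genotype per the labels. The groups were Young_STD (5 mice aged 1.5 months), Aged_STD (7 mice aged 14 months) and Aged_ENR (7 mice aged 14 months), where STD stands for standard cages and ENR for an enriched environment with tunnels and toys. Per the study, its 14-month mice had spent more than a year in their housing. Young_ENR mice were not analysed here. Per the study's methods, enriched mice shared an enclosure and standard mice shared cages, so that housing and enclosure cannot be told apart. The table holds methylation and no expression, so that the labelled tissue could not be checked against transcripts, and a shift in the mix of cell types cannot be told apart from a shift within cells.

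APP is cut by beta- and gamma-secretase to release amyloid-beta peptide, and PSEN2 is a catalytic subunit of gamma-secretase. SORL1 sorts APP between endosomes and the Golgi, APOE and ABCA7 carry and export lipid, TREM2 is a lipid-sensing receptor of microglia, and MAPT encodes tau, the protein of neurofibrillary tangles. In mammalian genomes, CpG-dense stretches at transcript starts are typically unmethylated, whereas CpG-poor sequence in gene bodies is typically methylated.

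The libraries differed in which CpGs they held. Between 349 and 527 of the 544 member cytosines had a value in a given mouse, and no read numbers are given, so that the precision of a single percentage is unknown. A composition index, which is the mean level in Young_STD mice of the CpGs that a given library held, was 30.5% to 32.1% in Young_STD, 19.5% to 38.0% in Aged_STD and 23.4% to 36.2% in Aged_ENR. To keep this from entering the values, the level of a region in a mouse was computed as the mean deviation of its measured cytosines from the cytosines' own means over the groups, added to the mean of the region. Such a value can fall below 0% or above 100% where few cytosines were measured, and over the member clusters and mice it reached from -14.3% to 119%. The libraries also came in 2 numbered series with every group in both, and differences within series 27 (3 Young_STD, 4 Aged_STD and 4 Aged_ENR mice) and series 37 (2, 3 and 3 mice) are given beside the pooled ones for some of the differences.

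Pooled over these genes, promoter and body cytosines were far apart in every mouse. In Psen2 and Mapt, however, the promoter mean was above that of the body, as given below. The 273 promoter cytosines averaged 7.67% ± 1.36 (SD, n = 5) in Young_STD, 6.57% ± 0.972 (n = 7) in Aged_STD and 7.01% ± 0.891 (n = 7) in Aged_ENR mice. The 266 body cytosines averaged 46.8% ± 1.77, 41.6% ± 3.58 and 43.1% ± 3.03 in the same groups. The distance between body and promoter in a single mouse lay between 30.1 and 42.0 points. Of the promoter cytosines, 234 were under 10% in Young_STD mice and 9 were over 80%, whereas 67 body cytosines were under 10% and 73 were over 80%.

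**Figure D1:**
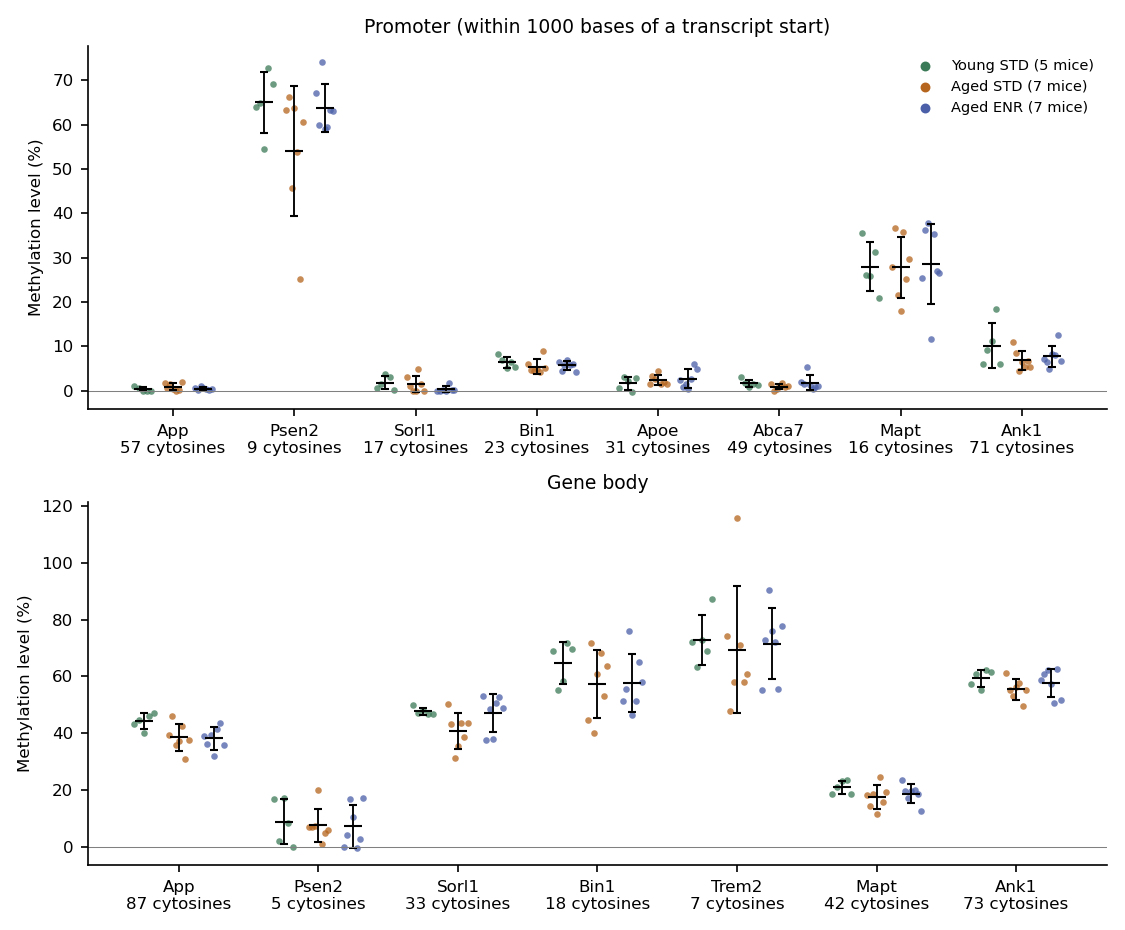
Methylation level in percent (y axis) of each promoter (top) and gene body (bottom) in each mouse, by gene and group, with the group mean and SD as black bars. The promoter means of App, Sorl1, Apoe and Abca7 lie under 3% in all groups, those of Bin1 and Ank1 between 5.47% and 10.2%, and those of Psen2 and Mapt higher, and the single Trem2 body value above 100% comes from an Aged_STD mouse with 1 measured cytosine there.

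The level of a cytosine went with the number of CpGs around it. Among the 217 cytosines with 10 or more CpGs within 100 bases on either side, the median level was 0% in all 3 groups, and 197 were under 10% in Young_STD mice. Among the 122 cytosines with under 5 CpGs, the Young_STD median was 58.4% and 21 were under 10%. The 205 cytosines with 5 to 9 CpGs lay between, at a median of 19.4%. Of the CpG-dense cytosines 176 were promoter and 41 were body cytosines. Of these 41, 28 were under 10% in Young_STD mice and the median was 3.85%, so that most but not all dense body cytosines were low.

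**Figure D2:**
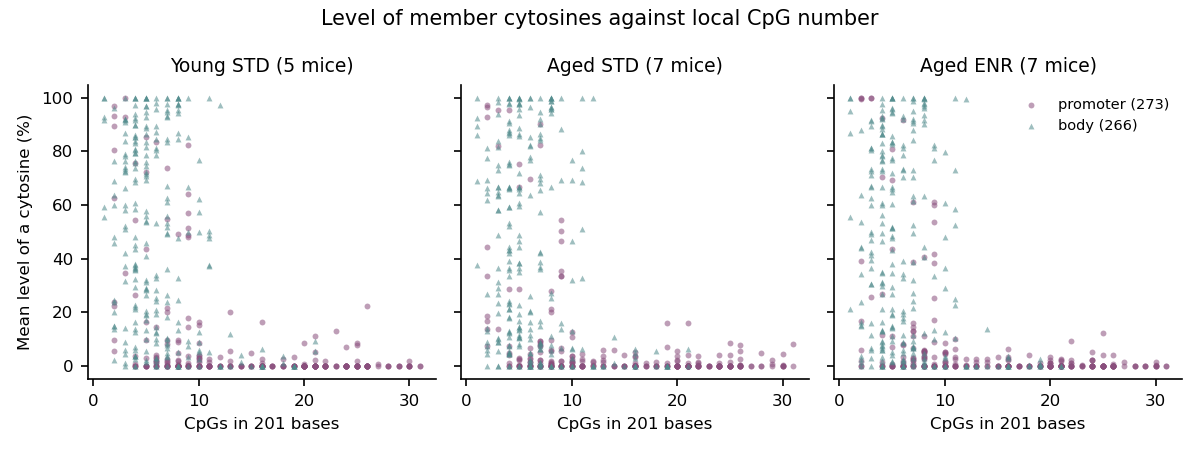
Mean level of each member cytosine in percent (y axis) against the number of CpGs within 100 bases on either side (x axis), by group, with 273 promoter cytosines as circles and 266 body cytosines as triangles. Cytosines with 10 or more CpGs nearby have a median of 0% in each group, and those with fewer spread from 0% to 100%.

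App, the gene of the amyloid precursor, lies on the minus strand at chr16:84949685-85173766 of mm10. Each promoter cytosine was counted with its nearest annotated transcript start, here and for the other genes. Other starts can lie within 1000 bases of the same cytosines. Of the 11 starts of App, only 1, close to the gene start, was the nearest to any of its 57 promoter cytosines. These cytosines averaged 0.351% ± 0.459 (SD, n = 5) in Young_STD, 0.916% ± 0.810 (n = 7) in Aged_STD and 0.442% ± 0.327 (n = 7) in Aged_ENR mice. A CpG-dense stretch of an App intron close to the gene start was low in all groups. It is shown 5′ to 3′ on the gene's strand, at chr16:85172655-85172822, with each CpG that was measured on either strand in capitals, as in all sequences given here:
App intron near start: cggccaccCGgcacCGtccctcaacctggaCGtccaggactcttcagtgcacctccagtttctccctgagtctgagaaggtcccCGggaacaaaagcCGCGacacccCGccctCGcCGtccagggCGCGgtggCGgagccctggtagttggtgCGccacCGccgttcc
The 17 measured cytosines of this stretch averaged 0.208% ± 0.497 in Young_STD, 0.484% ± 0.626 in Aged_STD and 0.835% ± 0.664 in Aged_ENR mice.

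The App body was lower in both aged groups than in young mice, by an amount that did not pass the adjusted test. Over its 87 cytosines the Young_STD mice had 43.3%, 44.5%, 39.9%, 46.2% and 47.0%. The Aged_STD mice ranged from 31.0% to 46.1% with a median of 37.7%, and the Aged_ENR mice from 31.9% to 43.6% with a median of 39.1%. The groups overlapped, and 5 of 7 Aged_STD mice and 5 of 7 Aged_ENR mice were below the lowest young mouse. The difference between Aged_STD and Young_STD was -5.64 points (limma SE 3.49, adjusted p = 0.679; exact permutation test, two-sided, unadjusted p = 0.038), with -2.91 points in series 27 and -9.54 in series 37. Between Aged_ENR and Young_STD it was -6.02 points (limma adjusted p = 0.770; exact permutation p = 0.015), and between Aged_ENR and Aged_STD -0.388 points (limma adjusted p = 0.991). The sign of the latter turned with the mice and the processing, at -3.08 points in series 27, 3.20 in series 37 and 3.26 with plain means. With the composition index in the model the difference between Aged_STD and Young_STD was -3.10 points, and with the plain mean of the measured cytosines, in which a library's composition stays, it was -10.6 points. The part of library composition in it was not otherwise tested.

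Along App, low and high stretches alternated behind the unmethylated start, and the pair of clusters farthest from the start were over 80%. Of the 14 clusters, which are runs of at least 3 cytosines with gaps of at most 100 bases, 6 were under 10% and 3 over 80% in Young_STD mice. The cluster of App with the lowest unadjusted p between Aged_STD and Young_STD lies in an intron, 120583 bases from the gene start, at chr16:85053021-85053191 with 8 bases added on each side:
App intron cluster: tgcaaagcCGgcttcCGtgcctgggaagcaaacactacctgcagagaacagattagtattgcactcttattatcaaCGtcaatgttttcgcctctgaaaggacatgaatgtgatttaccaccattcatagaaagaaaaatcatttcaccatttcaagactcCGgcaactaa
The plain mean of its 4 cytosines was 38.1%, 34.9%, 44.5%, 38.7% and 51.1% in the Young_STD mice, from 0% to 38.5% with a median of 5.24% in 6 Aged_STD mice, and from 0% to 48.7% with a median of 13.2% in 6 Aged_ENR mice. Only 1 of the 4 cytosines was measured in 3 of the 6 Aged_STD mice. The adjusted levels of AS4, AS6 and AS7 were below 0, at -14.3%, -14.3% and -4.74%. The adjusted level differed by -35.7 points between Aged_STD and Young_STD (limma SE 10.1, adjusted p = 0.591; exact permutation p = 0.013), with -34.0 points in series 27 and -38.4 in series 37, and the plain means differed by -28.5 points. Aged_ENR mice lay 16.1 points above Aged_STD mice in the adjusted level (limma adjusted p = 0.923) and 8.93 points above them in the plain mean.

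The last CpG of this sequence, near its 3′ end, is the cytosine with the largest age difference among the 3 member cytosines whose Young_STD and Aged_STD ranges did not overlap. All 3 lie in App introns. The first, at chromosome 16 position 85053029, was at 67.9%, 74.7%, 84.4%, 100% and 45.7% in the Young_STD mice, from 0% to 43.6% in 6 Aged_STD mice and from 0% to 100% in 6 Aged_ENR mice. The others, at positions 85066198 and 85066157, are neighbours and can be read on the same fragment, so that they are not independent. They are the capitals of the stretch at chr16:85066149-85066206:
App intron pair: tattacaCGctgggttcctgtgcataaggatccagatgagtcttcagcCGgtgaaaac
At position 85066198 the Young_STD mice had 57.1%, 64.3%, 54.2% and 48.6%, whereas 6 Aged_STD mice had 0% to 36.8%. At position 85066157 they had 8.70%, 23.1%, 57.1% and 47.2%, against 0% to 5.88%. The Aged_ENR mice overlapped both groups at all 3 positions, with up to 100%, 82.4% and 16.4%. The differences between Aged_STD and Young_STD were -60.0, -39.2 and -32.3 points (limma adjusted p = 0.760 for each). Across the table, 0.584% of CpGs measured in at least 4 mice of each group had ranges that did not overlap in this comparison, against 3 of 339 member cytosines (0.885%).

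**Figure D3:**
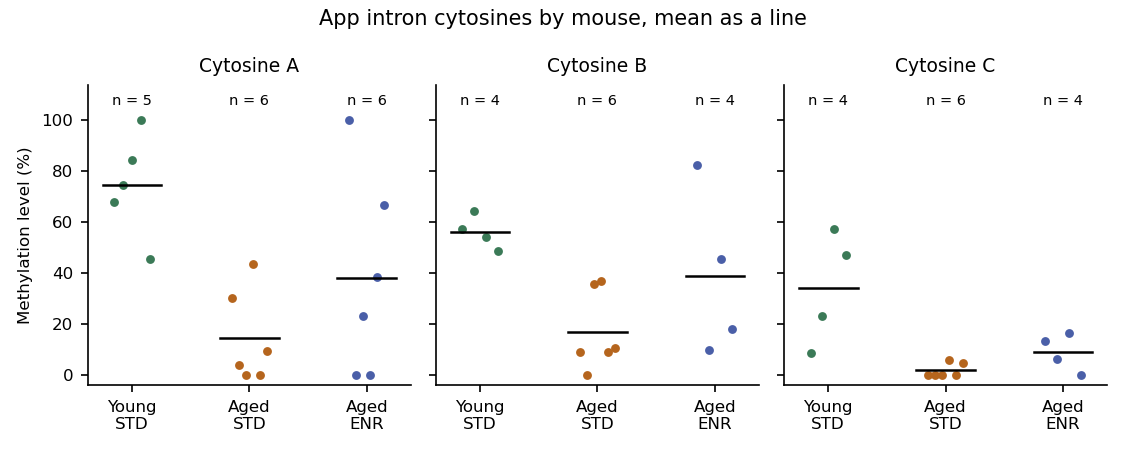
Methylation level in percent (y axis) of 3 App intron cytosines in each mouse, by group, with the group mean as a line. Cytosine A is at position 85053029, B at 85066198 and C at 85066157, and in each the Young_STD mice lie above all Aged_STD mice while the Aged_ENR mice overlap both groups.

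A second App stretch, of 9 intronic cytosines at chr16:85076409-85076656, was high in all groups. Its plain means were 79.8% to 97.8% in Young_STD, 49.9% to 85.7% in Aged_STD and 54.1% to 83.1% in Aged_ENR mice. The adjusted level differed by -12.1 points between Aged_STD and Young_STD (limma adjusted p = 0.818) and by -15.2 points between Aged_ENR and Young_STD (limma SE 4.57, adjusted p = 0.743; exact permutation p = 0.0025). Within the series, the former was -2.15 and -26.4 points and the latter -13.9 and -17.8 points. Another App stretch, of 3 intronic cytosines 36161 bases from the start, was at 21.5%, 6.78%, 8.77%, 0% and 10% in Young_STD mice and at 0% in all 6 Aged_STD mice with a value (limma adjusted p = 0.646). Both stretches were chosen after their values were seen.

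**Figure D4:**
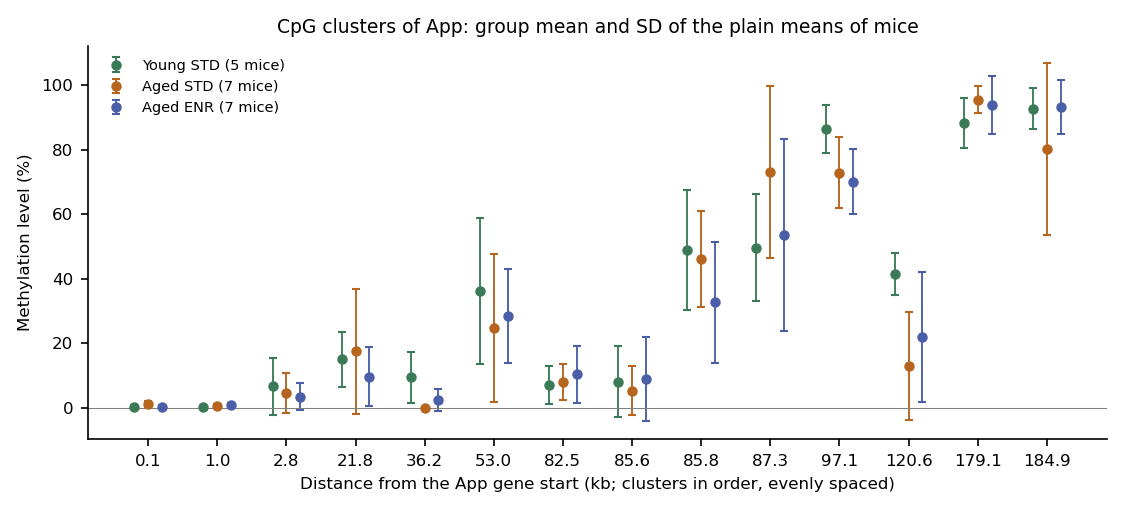
Mean methylation level and SD over mice in percent (y axis) of the 14 App clusters in order of distance from the gene start in kb (x axis, evenly spaced), computed from the plain mean of the measured cytosines in each mouse. Levels are near 0% at the start and over 80% in the last pair, and among these 14 the intron cluster at 120583 bases shows the widest distance between the Young_STD and Aged_STD means.

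Psen2, which encodes presenilin 2, lies on the minus strand at chr1:180227004-180263438, and its promoter values were the highest of the 8 promoters. They came from 9 cytosines nearest to 3 of its 12 transcript starts, and differed between the starts. Within 1000 bases of a pair of internal starts of coding transcripts, 3 and 2 cytosines averaged 89.6% and 91.3% in Young_STD, 91.1% and 94.8% in Aged_STD and 97.5% and 100% in Aged_ENR mice. Within 1000 bases of the outermost measured start, 4 cytosines averaged 31.4% in Young_STD, 18.9% in Aged_STD and 22.6% in Aged_ENR mice. The sequence before this start is CpG-poor, with 4 CpGs in the 243 bases of chr1:180263591-180263833:
Psen2 upstream: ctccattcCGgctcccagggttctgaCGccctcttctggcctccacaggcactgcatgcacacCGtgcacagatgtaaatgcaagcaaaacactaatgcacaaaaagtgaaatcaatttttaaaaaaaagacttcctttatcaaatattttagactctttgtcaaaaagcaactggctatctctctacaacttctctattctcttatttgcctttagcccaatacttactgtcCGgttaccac
Over all 9 cytosines the Young_STD mice had 64.0%, 64.9%, 54.4%, 72.6% and 69.2%, the Aged_STD mice 25.1% to 66.1% (median 60.7%) and the Aged_ENR mice 59.0% to 74.1% (median 63.2%). The groups overlapped, and the lowest value belonged to 1 Aged_STD mouse, AS6. The mean over the 9 cytosines joins starts that differed in direction, since the aged means were lower by the outermost start and higher by the internal ones. The Aged_STD mice differed from the Young_STD mice by -11.0 points (limma SE 6.86, adjusted p = 0.682), with -1.42 points in series 27 and -24.4 in series 37, and by -6.15 points without AS6. This difference was -5.88 points with the composition index, -6.51 with the replicate number as a block and -18.0 with plain means. The Aged_ENR mice lay 9.64 points above the Aged_STD mice (limma adjusted p = 0.943), with 5.32 and 15.4 points in the series, and 4.81 points above them without AS6. At the 1 cytosine measured in all 19 mice the aged groups differed by -5.10 points. The upstream cluster of 3 cytosines starting at position 180263770 had the lowest unadjusted p of the gene's clusters with age (-10.5 points, limma adjusted p = 0.830). The 5 body cytosines, all in an intron, were low, at 8.87% ± 7.96, 7.56% ± 5.91 and 7.27% ± 7.60 in Young_STD, Aged_STD and Aged_ENR mice.

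Sorl1, the sorting receptor gene, lies on the minus strand at chr9:41964720-42124297. Its 17 promoter cytosines, all within 1000 bases of the outermost start, averaged 1.86% ± 1.55 in Young_STD, 1.50% ± 1.88 in Aged_STD and 0.347% ± 0.659 in Aged_ENR mice. This promoter was the only member region with an unadjusted limma p under 0.05 in any comparison, between Aged_ENR and Young_STD (-1.51 points, unadjusted p = 0.037, adjusted p = 0.732; exact permutation p = 0.045), a distance close to the SD of the young mice. The promoter cluster at position 42123997 had the lowest unadjusted p of the gene's clusters with age (-2.31 points, limma adjusted p = 0.830).

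The Sorl1 body was lower in Aged_STD than in Young_STD mice, and the Aged_ENR mean was near the young one, with neither difference past the adjusted test. The Young_STD mice were close together, at 49.8%, 47.0%, 48.2%, 46.9% and 46.8%. The Aged_STD mice ranged from 31.2% to 50.2% (median 43.2%), with 6 of 7 below the lowest young mouse. The Aged_ENR mice ranged from 37.7% to 53.3% (median 49.0%), with 2 of 7 below the lowest and 3 above the highest young mouse. The age difference was -6.88 points (limma SE 3.74, adjusted p = 0.652; exact permutation p = 0.020), with -8.26 points in series 27 and -4.95 in series 37. The Aged_ENR mice lay 6.30 points above the Aged_STD mice (limma SE 3.93, adjusted p = 0.943; exact permutation p = 0.094), with 4.27 and 9.01 points in the series, and differed from Young_STD by -0.580 points, with -3.98 and 4.06 points in the series. With the composition index in the model the 3 differences were -3.64, 3.96 and 1.90 points, and with plain means they were -12.2, 8.73 and -3.44 points.

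The clusters in the Sorl1 body did not share a direction. A cluster of 6 intronic cytosines, 2519 bases from the start of the noncoding transcript Sorl1-204, at chr9:41981968-41982059, was lowest in Aged_STD mice, as was the whole body:
Sorl1 intron, lower: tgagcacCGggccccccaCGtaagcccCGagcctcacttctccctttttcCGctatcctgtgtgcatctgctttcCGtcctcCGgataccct
Its levels were 37.2% to 52.9% in 4 Young_STD, 17.2% to 58.9% in 7 Aged_STD and 24.6% to 66.8% in 7 Aged_ENR mice, a wide overlap (limma adjusted p = 0.842 between Aged_STD and Young_STD). The body cluster with the lowest unadjusted p with age was higher in Aged_STD than in Young_STD mice, at chr9:41995539-41995630:
Sorl1 intron, higher: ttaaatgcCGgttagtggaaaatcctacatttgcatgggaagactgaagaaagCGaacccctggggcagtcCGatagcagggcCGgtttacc
It was at 18.8% to 26.8% in 4 Young_STD mice, at 22.2% to 38.3% in 5 Aged_STD mice and at 14.7% to 46.1% in 4 Aged_ENR mice. The age difference was 7.61 points (limma adjusted p = 0.838; exact permutation p = 0.079).

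Apoe, the gene of the main lipid carrier of the brain, lies on the minus strand at chr7:19696109-19699188. All but 1 of its 32 cytosines form a single cluster of 31 around its starts, with a value in every mouse. Its intronic stretch, in which 10 of 11 CpGs were measured, lies at chr7:19698667-19698947:
Apoe intron: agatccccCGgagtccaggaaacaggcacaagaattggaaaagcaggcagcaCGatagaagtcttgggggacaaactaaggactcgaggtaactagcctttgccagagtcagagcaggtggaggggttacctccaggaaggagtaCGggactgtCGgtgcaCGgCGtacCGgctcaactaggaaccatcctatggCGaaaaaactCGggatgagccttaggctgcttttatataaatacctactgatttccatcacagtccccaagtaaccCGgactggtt
The cluster was at 1.70% ± 1.49 in Young_STD, 2.41% ± 1.10 in Aged_STD and 2.72% ± 2.08 in Aged_ENR mice. The highest single mouse, an Aged_ENR animal, was at 6.08%. The differences of 0.711 points with age (limma SE 0.744, adjusted p = 0.790) and 0.315 points between the aged groups (limma SE 0.870, adjusted p = 0.969) were smaller than the SD of the mice, and the latter was -1.62 points in series 27 and 2.89 in series 37.

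Abca7, a lipid transporter gene, lies on the plus strand at chr10:79996494-80015572, and 49 of its 50 cytosines lie by its 3 transcript starts. They were at 1.70% ± 0.807 in Young_STD, 0.929% ± 0.598 in Aged_STD and 1.82% ± 1.69 in Aged_ENR mice. The age difference of -0.774 points (limma SE 0.464, adjusted p = 0.672) and the 0.890 points between the aged groups (limma SE 0.674, adjusted p = 0.943) did not pass the test. The latter was 0.281 points without the Aged_ENR mouse AE3, and 1.83 points in series 27 and -0.368 in series 37. In the cluster with the lowest unadjusted p, 6 intronic cytosines at chr10:79996966-79997104, the plain mean was 0% to 20% in 4 Young_STD mice and 0% to 1.16% in Aged_STD mice, and the highest young value rested on 2 of the 6 cytosines (adjusted level -6.00 points, limma adjusted p = 0.799).

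Trem2, the microglial receptor gene, lies on the plus strand at chr17:48346401-48354147 and had 7 cytosines, all in its body and none in reach of its 4 transcript starts. Its body level was the highest of the 7 tested bodies, at 72.8% ± 8.83 in Young_STD, 69.4% ± 22.3 in Aged_STD and 71.5% ± 12.5 in Aged_ENR mice. The only cluster lies in a noncoding exon part, at chr17:48353133-48353201, with 3 CpGs in 69 bases:
Trem2 exon: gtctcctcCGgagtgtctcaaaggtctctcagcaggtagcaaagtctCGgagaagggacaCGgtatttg
It was at 48.0% to 93.8% in 5 Young_STD, 44.8% to 76.9% in 4 Aged_STD and 46.6% to 90.8% in 6 Aged_ENR mice. The ranges overlapped throughout (-15.0 points with age, limma adjusted p = 0.830, with -1.04 points in series 27 and -34.6 in series 37). In this gene, 3 of the 7 Aged_STD mice had no value in that cluster, so that its body values rest on few cytosines. The body difference of -3.44 points with age was -11.2 points without AS4, the mouse above 100%, and -32.0 points with plain means. Its sign turned without the Young_STD mouse YS5 (0.148) or the Aged_STD mouse AS2 (0.161), and it was 4.60 points in series 27 and -14.8 in series 37. That of 2.11 points between the aged groups was 9.84 without AS4, -1.49 without AS2, -1.04 without AE3 and 26.3 with plain means.

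Mapt, the tau gene, lies on the plus strand at chr11:104231390-104332090, and its promoter cytosines were nearest to 3 of its 11 transcript starts. An intronic stretch of 10 cytosines, away from every annotated start, was low in all groups, at chr11:104278320-104278430:
Mapt intron: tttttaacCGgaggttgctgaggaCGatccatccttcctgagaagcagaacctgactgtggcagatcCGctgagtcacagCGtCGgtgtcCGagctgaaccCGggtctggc
It was at 1.51% ± 1.47 in Young_STD, 2.52% ± 2.62 in Aged_STD and 1.92% ± 2.84 in Aged_ENR mice. The 8 cytosines 924 to 989 bases from the outermost measured start averaged 0% in Young_STD, 1.09% in Aged_STD and 0.120% in Aged_ENR mice. Over all 16 promoter cytosines the levels were 28.0% ± 5.58, 27.8% ± 6.91 and 28.6% ± 9.04. These promoter levels depended on the processing. The difference between Aged_ENR and Aged_STD was 0.786 points, but 13.6 with plain means and -1.60 with the composition index. That between Aged_ENR and Young_STD was 0.637 points, but 10.04 with plain means. The age difference of -0.149 points was 4.23 with a promoter of 500 bases, 3.97 with the index and -3.55 with plain means. Over the 42 body cytosines the levels were 21.0% ± 2.37, 17.5% ± 4.16 and 18.8% ± 3.29 (-3.41 points with age, limma SE 2.50, adjusted p = 0.716). The body difference was -5.11 points in series 27, -1.16 in series 37, -7.33 with plain means and -1.34 with the composition index. Among the genes with both regions tested, only Mapt and Psen2 had a higher level over all promoter cytosines than in the body. The Mapt promoter mean joins starts that differed in level. The 7 cytosines nearest the internal start of the noncoding transcript Mapt-210 averaged 62.0% in Young_STD, 60.0% in Aged_STD and 61.3% in Aged_ENR mice. The Mapt cluster starting at position 104319154 had the lowest unadjusted p of its clusters with age (-5.61 points, limma adjusted p = 0.836).

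Ank1, the gene of the membrane-cytoskeleton linker ankyrin 1, lies on the plus strand at chr8:22974844-23150497. Its promoter cytosines were nearest to 5 of its 16 transcript starts. The 16 and 38 cytosines nearest a pair of starts in CpG-dense sequence averaged 0.802% and 6.18% in Young_STD mice. Another 7 cytosines, 174 to 259 bases past the start of Ank1-213, averaged 57.3%. These 7 lie in an intron, in the stretch chr8:23035397-23035498, which does not reach the start itself:
Ank1 intron: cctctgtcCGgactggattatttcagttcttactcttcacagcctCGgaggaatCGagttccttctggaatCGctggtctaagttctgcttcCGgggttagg
The plain mean of its 7 cytosines was 47.0%, 53.9%, 50.2%, 95.9% and 37.4% in the Young_STD mice, 14.3% to 100% (median 28.6%) in Aged_STD mice and 35.6% to 81.8% (median 40.6%) in 6 Aged_ENR mice. The adjusted level differed by -14.9 points between Aged_STD and Young_STD (limma SE 15.9, adjusted p = 0.844), with 4.18 points in series 27 and -41.7 in series 37, so that the direction did not hold within series. Over 71 promoter cytosines Ank1 was at 10.2% ± 5.12, 6.83% ± 2.21 and 7.77% ± 2.37 (-3.35 points with age, limma SE 2.05, adjusted p = 0.677), with -1.22 points in series 27, -6.43 in series 37, -2.18 with a promoter of 500 bases and -6.72 with plain means. Over 73 body cytosines it was at 59.4% ± 2.97, 55.5% ± 3.65 and 57.8% ± 4.91 (-3.92 points, limma SE 3.11, adjusted p = 0.732), with -1.31 points in series 27, -7.68 in series 37, -2.21 with the composition index and -10.7 with plain means. The cluster with its lowest unadjusted p with age, at chr8:23058777-23059038, differed by -2.99 points (limma adjusted p = 0.830).

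Bin1, which encodes a membrane-bending protein of endocytosis, lies on the plus strand at chr18:32377230-32435737. Within 1000 bases of its upstream starts, 7 and 14 cytosines averaged 0.518% and 1.78% in Young_STD mice, whereas 2 cytosines within 1000 bases of the start of the internal transcript Bin1-204 averaged 60.3%. The promoter as a whole was at 6.43% ± 1.23, 5.47% ± 1.63 and 5.70% ± 1.01 in Young_STD, Aged_STD and Aged_ENR mice. The 18 body cytosines were at 64.8% ± 7.31, 57.5% ± 12.0 and 57.7% ± 10.1 (-7.34 points between Aged_STD and Young_STD, limma SE 5.98, adjusted p = 0.738). It was -6.58 points in series 27, -9.00 in series 37 and -2.47 with the composition index in the model. Within the body, an intronic cluster of 5 cytosines at positions 32392645 to 32392829 had a plain mean of 78.0% to 93.5% in Young_STD mice, 20% to 93.5% in Aged_STD mice and 43.4% to 100% in Aged_ENR mice. Its adjusted level differed by -27.1 points between Aged_STD and Young_STD (limma SE 9.91, adjusted p = 0.727; exact permutation p = 0.018), and by -29.4 and -24.0 points within the series, with 1 Aged_STD mouse at the level of the highest young mouse. The cluster was chosen after its values were seen.

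The comparison of aged with young standard mice gave no called cytosine, region or cluster in these genes. Single cytosines were called at an adjusted limma p under 0.05 with a difference over 25 points, and regions and clusters at an adjusted p under 0.05. Cytosines without any spread between mice could not be tested. In this comparison 0 of 394 tested member cytosines were called (0% of the 527597 tested in the table), 0 of 16 regions (0% of all gene regions) and 0 of 62 clusters (0.00133% of all clusters). At an unadjusted p under 0.05, 12 member cytosines were lower (3.05%, against 3.33% of the table) and 2 higher (0.508%, against 1.09%), 0 regions passed against 8.27% of the table, and 5 clusters (8.06%) against 6.2%. The 5 clusters were those of App at 120583 and 36161 bases from its start, 2 of Bin1 and 1 of Abca7, of which 4 were lower and 1, in Bin1, was higher. A difference over 25 points lower was seen at 33 member cytosines (8.38%, against 7.19% of the table), of which 30 were body cytosines and 11 lay in App, and one over 25 points higher at 8 (2.03%, against 2.17%).

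Over the 16 regions and 3 comparisons, 4 of 48 exact permutation p-values, which are unadjusted, were under 0.05. They were 2 with age (the App and Sorl1 bodies), 0 between the aged groups and 2 between Aged_ENR and Young_STD (the App body and the Sorl1 promoter), and the others with age lay between 0.0783 and 0.980. The exact test was not run on the other gene regions, so that no share over the table stands beside these counts.

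The direction of the region differences was lower in 13 of 16 member regions, including all 7 bodies, and of all genes tested 73.4% of bodies and 53.6% of promoters were lower. The median body difference was -3.92 points over the 7 genes and -3.45 points over all 13191 gene bodies of the table, whose middle range (quartiles) was -8.55 to 0.207 points. The median promoter difference was -0.568 points over 8 genes and -0.102 over 19154 promoters. The pooled body difference of -5.16 points was -3.92 in series 27 and -7.00 in series 37. The composition index of the mice moved with it, with the 3 lowest Aged_STD libraries on the index (AS3, AS4 and AS6) also the 3 lowest in the pooled body level, at 37.5%, 40.6% and 36.6%. With the index in the model the pooled body difference was -2.75 points.

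**Figure D5:**
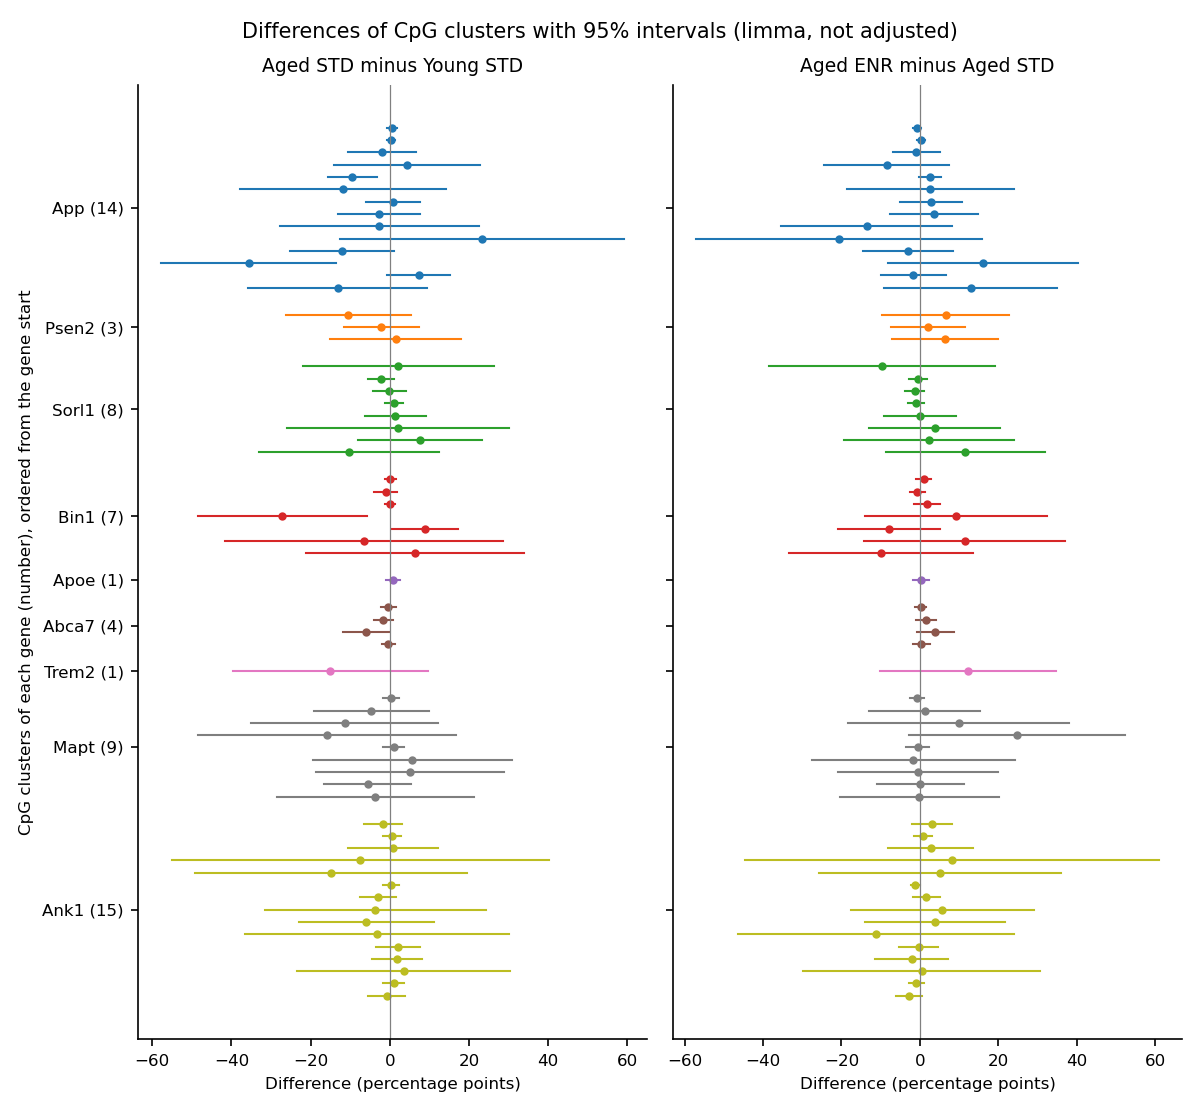
Difference in methylation level in percentage points (x axis) for each of the 62 member clusters, grouped by gene and ordered from the gene start (y axis), with the 95% limma interval not adjusted for multiple tests, for Aged_STD minus Young_STD (left) and Aged_ENR minus Aged_STD (right). The age differences on the left span -35.7 to 23.3 points.

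The clusters sorted by their young level showed where the differences lay. Of the 26 clusters under 10% in Young_STD mice, 14 were lower and 12 higher in Aged_STD mice, with a median of -0.238 points. Of the 25 clusters between 10% and 80%, 16 were lower and 9 higher, with a median of -3.66 points and a span from -35.7 to 23.3 points. Of the 11 clusters over 80%, 4 were lower and 7 higher, with a median of 1.51 points. The young level enters both the sorting and the difference, so that these are descriptions.

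Enriched housing was compared with standard housing at 14 months on the same cytosines. Again 0 of 406 cytosines (0% of the table), 0 of 16 regions (0%) and 0 of 62 clusters (0%) were called with limma. At an unadjusted p under 0.05, 5 member cytosines were higher in Aged_ENR mice (1.23%, against 1.45% of the table) and 4 lower (0.985%, against 0.798%), 0 regions passed (against 4.48%) and 1 cluster did (against 3.93%). That cluster, 18 cytosines at a start of Ank1, was at 1.48% ± 1.11 in Aged_STD and 0.278% ± 0.388 in Aged_ENR mice. Over 25 points, 17 cytosines were higher (4.19%, against 4.53%) and 14 lower (3.45%, against 2.62%), and 0 of 418 had ranges that did not overlap (against 0.113%). Of the 16 regions, 11 were higher in Aged_ENR mice and 5 lower, and of all genes tested 36.8% of bodies and 46.7% of promoters were lower. The median body difference was 1.26 points over the 7 genes and 1.24 over all gene bodies.

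Against young mice, Aged_ENR mice gave 0 called of 390 cytosines (0% of the table), 0 of 16 regions (0%) and 0 of 61 clusters (0%). At an unadjusted p under 0.05, 10 cytosines were lower (2.56%, against 2.56% of the table) and 1 higher (0.256%, against 1.4%), 1 region passed (against 6.69%) and 2 clusters (against 5.64%). A difference over 25 points lower was seen at 22 cytosines (5.64%, against 5.21%) and higher at 4 (1.03%, against 2.39%), and 0 of 363 had ranges that did not overlap (against 0.461%). The pooled body level was 3.65 points below that of the young mice, and the median body difference was -1.68 points over the 7 genes and -1.71 over all gene bodies. These 3 comparisons share mice, so that their values are given side by side only.

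Cytosines measured on both strands of a CpG, which are read from separate molecules, gave a view of the measurement itself. Among 52 such sites, 11 had a mean level of 20% to 80%, and at these the strands of a mouse differed by a median of 34.8 points (root mean square over mice). At 8 of the 11, both strands had the same sign of difference with age. The 3 App cytosines with separate ranges were measured on 1 strand only.

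Other genes of the same pathways, listed by role, were treated alike. Of 49 genes, 47 held measured CpGs, with 2487 cytosines in all, and 0 of their 79 regions, 0 of 1671 tested cytosines and 0 of 235 clusters were called with limma between Aged_STD and Young_STD. Of the 79 regions (promoters and bodies together), 59 were lower and 20 higher, where 73.4% of bodies and 53.6% of promoters of all genes were lower. An unadjusted p under 0.05 was seen at 8 (10.1%), against 8.27% of all regions. By role, 14 of 22 regions were lower among genes of APP cleavage and APP homologues, 8 of 13 in lipid transport, 12 of 14 in endocytosis and sorting, 8 of 11 among microglial genes, 11 of 12 among tau kinases and microtubule partners, and 6 of 7 near human cortex methylation marks. Between the aged groups, 44 of 79 regions were higher and 35 lower in Aged_ENR mice, 0 were called and 4 (5.06%) had an unadjusted p under 0.05, against 4.48% of all regions. Between Aged_ENR and Young_STD, 50 regions (63.3%) were lower and 29 higher, where 65.8% of bodies and 51.3% of promoters of all genes were lower, 0 were called and 10 (12.7%) had an unadjusted p under 0.05, against 6.69% of all regions.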

How the data were processed

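Reduced representation bisulfite libraries of dentate gyrus from 19 mice were used, in the groups Young_STD (5), Aged_STD (7) and Aged_ENR (7). The authors deposited the percent methylation of each cytosine and mouse. They kept cytosines with at least 10 reads and values in at least 3 mice of each group. Per the submitters' processing notes, the tools were Trim Galore 0.4.0, cutadapt 1.8.1, Bismark 0.16.1 and methylKit 1.5.2 on mm10. Read numbers are not given, so that no interval for counting error was computed.

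From these values, 20 of 762182 cytosines that lie in no CpG were dropped, and promoters (within 1000 bases of a transcript start), bodies, flanks (2000 bases) and clusters were formed. Groups were compared over mice with limma 3.58.1 (R 4.3.3) on the percent scale with a trended prior, over the whole table, with Benjamini-Hochberg adjustment. CpGs with no spread between the mice compared were not tested. Single values had exact permutation tests, two-sided, and their p-values are unadjusted. These ran over 792 or 3432 labellings where every mouse had a value, and over fewer where some mice had none. The fits were tested on simulated data. Other steps used Python 3.11.15, numpy 2.4.6, scipy 1.17.1 and pandas 2.3.3. The members and lists were chosen with earlier results of these data known. Named were all 9 genes, called features, cytosines with ranges that did not overlap and at least 4 mice per group, and the cluster of each gene with the lowest unadjusted p with age. Alternatives changed the prior, the scale, the covariates, the region values, the promoter width, the mice and a replicate block. Beside the stretches shown, a further one is not reported here.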

Additional observations from a re-analysis of the deposited data

Results flagged for a closer look

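In 5 of 46 group and region combinations of 4 to 10 mice, 1 mouse lay far from the rest by Dixon's criterion, which chance meets in about 5% of groups. In the Psen2 body, the Aged_STD mouse AS4 was at 20%, against 0.909% to 7.22% in the other Aged_STD mice. In the Trem2 body, the same mouse had an adjusted value of 115.8%, against 47.8% to 74.3%, and only 1 of the 7 Trem2 cytosines was measured in it. In the Bin1 promoter, AS6 was at 8.90%, against 4.15% to 6.04% in the other Aged_STD mice. In the Sorl1 promoter, the Aged_ENR mouse AE5 was at 1.82%, and the others reached at most 0.275%. In the Abca7 promoter, AE3 was at 5.47%, against 0.346% to 1.96% in the other Aged_ENR mice.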

How the results depend on the processing

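With limma, 0 member cytosines, regions or clusters were called under every setting run. The mean body difference between Aged_STD and Young_STD was -11.5 points with plain means in place of -5.16, and that between Aged_ENR and Young_STD was -7.00 in place of -3.65. With plain means the body difference between the aged groups was 4.51 in place of 1.51, and the promoter difference with age -2.15 in place of -1.10. The mean promoter difference between the aged groups was 1.40 points with each gene counted alike, in place of 0.443, and it was 0.139 with the composition index, -0.108 in series 27 and 1.18 in series 37. The promoter difference between Aged_ENR and Young_STD was -1.39 with plain means and -0.226 with the index, in place of -0.657, and that with age -0.740 with the index and -1.91 with each gene counted alike. The cause was not tested. With the composition index as a covariate, the body differences were -2.75 points (Aged_STD against Young_STD), 0.113 (Aged_ENR against Aged_STD) and -2.63 (Aged_ENR against Young_STD).

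Leaving out 1 mouse at a time gave body differences of -5.88 to -4.32 points, 0.670 to 2.23 and -4.36 to -3.03 in the same order, and promoter differences of -1.40 to -0.519, 0.172 to 0.702 and -0.955 to -0.0755. Of 258 values of single gene regions under other settings, 16 moved by more than the spread between mice and 22 changed sign, as did 51 of 608 with 1 mouse left out. Same-numbered mice did not deviate together, with 0 pairs over a correlation of 0.1 and medians of 0.00596, 0.00222 and -0.00045. With the replicate number as a block the body differences were -4.23, 1.51 and -3.91 points and the promoter differences -1.02, 0.443 and -0.953.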
